A study of Mus musculus with 9 samples.

Results

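Annexins are proteins that bind acidic phospholipids in the presence of calcium. They share a conserved core that docks on the membrane, and differ in an amino-terminal tail that binds partners, many of them small EF-hand calcium sensors such as the S100 proteins. They act in membrane repair, in the traffic of endosomes and secretory granules, in plasminogen activation at the cell surface and in the damping of inflammation. In human prostate cancer, lower annexin A1 and annexin A2 than in benign epithelium have been described.

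The family was read here in 1 Rb-/- and 1 wild-type line of mouse prostate epithelial cells, on 9 single-channel arrays of total RNA. Rb1 encodes the retinoblastoma protein, which restrains E2F transcription factors before DNA replication. The arrays comprised 2 of Rb-/- cells kept in RPMI-1640 without fetal bovine serum for 48 hours, 2 of Rb-/- cells in RPMI-1640 with 5% fetal bovine serum, 2 of wild-type cells without serum for 48 hours and 3 of wild-type cells with 5% serum. Each genotype is thus a single line, and any contrast of genotypes compares these cells only. Neither the lost part of Rb1 nor the origin of replicate arrays (1 culture or several) is stated in the labels, so p-values gauge array-to-array spread alone, which may be technical. The few arrays limit the precision.

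The members were all probe sets that the platform annotation assigns to Anxa1, Anxa2, Anxa3, Anxa4, Anxa5, Anxa6, Anxa7, Anxa8 or Anxa11, which gave 12 of the 12422 probe sets. Of these, 11 carry 1 gene symbol and cover 8 of the 9 genes, among 8251 genes with a probe set of their own. The remaining one is assigned to Anxa11 together with 2 predicted genes, so its values are given for the probe set and not for Anxa11. The family was chosen from earlier results of these arrays, and which measured values led to the choice is not recorded. The differences between the lines are therefore a description: where the text counts those past the fit's threshold, the count is set beside that of all tested probe sets and nothing is inferred from it. The responses to serum withdrawal are given with their tests, which are no independent support for a choice made with results in view. The difference of the responses also equals the difference between the lines without serum minus that in serum, so its test reuses those values.

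Levels are quantile-normalized intensities, and differences are on the log2 scale with the standard error (SE) of the fit over all 9686 tested probe sets. Intensities under a floor of 197, percentile 25 of all values, were raised to the floor for the fit. Both this shared probe set and 10 of the 11 single-gene probe sets lay above the floor on all 9 arrays, so no member entered the tests through a single group. The second Anxa7 probe set lay between 105 and 140.1 on every array and was not tested. A difference in these arrays cannot separate fewer expressing cells from less RNA per cell.

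The median deposited intensity ran from 445 to 474 across arrays. Deposited upper quartiles were 1119 to 1153 on Rb-/- arrays and 991 to 1088 on wild-type arrays. Quantile normalization removes this difference, which coincides with the lines, and its source was not tested. Rb1 read 109.5 to 171 on Rb-/- arrays and 368 to 714 on wild-type arrays, with no overlap between the lines. All 9 epithelial markers looked for, among them the keratins Krt8, Krt18 and Krt19 and the cadherin Cdh1, lay above the floor. Of the 4 prostate markers on the array, Hoxb13, Foxa1 and Trp63 lay above the floor and probasin (Pbsn) did not. The fibroblast marker Vim, the smooth muscle markers Acta2 and Myh11, and the leukocyte markers Ptprc and Lyz2 were below the floor on all arrays. Summed intensity of the 5 smooth muscle markers on the array was 4538 to 4981 on Rb-/- arrays and 6431 to 7531 on wild-type arrays, with 2 of 5 above the floor. The sum of the 5 endothelial markers was 1554 to 1661 on Rb-/- arrays and 1746 to 2065 on wild-type arrays, with 4 of 5 above the floor. Of the fibroblast markers 5 of 7 lay above the floor, collagens among them, with sums of 3168 to 3294 on Rb-/- arrays and 3078 to 3969.7 on wild-type arrays, and of the leukocyte markers 3 of 5, with 1354 to 1408 on Rb-/- arrays and 1289 to 1619 on wild-type arrays. The sum of the 4 prostate markers was 1690.0 to 2097 on Rb-/- arrays and 979 to 1285 on wild-type arrays. The part of these shifts in the annexin differences was not tested. The first wild-type serum array had rank correlations of 0.974 and 0.969 with the other wild-type serum arrays, against 0.995 between those, and withdrawal results of the annexins are given without it where a call changes. Leaving it out also adds 2 probe sets to those past the threshold between the lines without serum, Anxa2 and the shared one, at the same differences and smaller standard errors. Over all tested probe sets, 4983 of 9654 then passed there, against 2971 of 9686 with it.

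Anxa8 was the annexin with the largest difference between the lines in serum and averaged over media, and the largest response to serum withdrawal in Rb-/- cells. Without serum the difference of Anxa5 was larger. The Anxa8 protein is an annexin with anticoagulant activity that has been placed on late endosomes in human cells. Anxa8 intensities were 1811 and 1930.1 in Rb-/- serum-free cells, 570.3 and 547 in Rb-/- serum cells, 2519 and 2608 in wild-type serum-free cells and 1935, 1662 and 1717 in wild-type serum cells. The Rb-/- serum arrays were the lowest and stood apart from all others. The wild-type serum-free arrays were the highest, and the Rb-/- serum-free arrays lay inside the range of the wild-type serum arrays.

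In serum, Anxa8 was 3.16-fold lower in the Rb-/- line, a log2 difference of -1.66 (SE 0.08, 2 against 3 arrays). Without serum the difference between the lines was -0.46 (SE 0.09, 2 against 2 arrays). That smaller value depended on scaling, at -0.21 for unscaled deposited intensities and -0.25 after median scaling. Serum withdrawal raised Anxa8 in both lines. In Rb-/- cells it rose 3.35-fold (log2 1.74, SE 0.09, limma adjusted p = 6.05e-06), and in wild-type cells 1.45-fold (log2 0.54, SE 0.08, adjusted p = 0.00252). The rise was larger in the Rb-/- line by 1.21 on the log2 scale (SE 0.12, adjusted p = 0.00433), which placed Anxa8 at rank 22 of 9686 probe sets by absolute size of that difference. All 17 alternative settings kept this call, with adjusted p from 0.000578 to 0.0436.

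**Figure D1:**
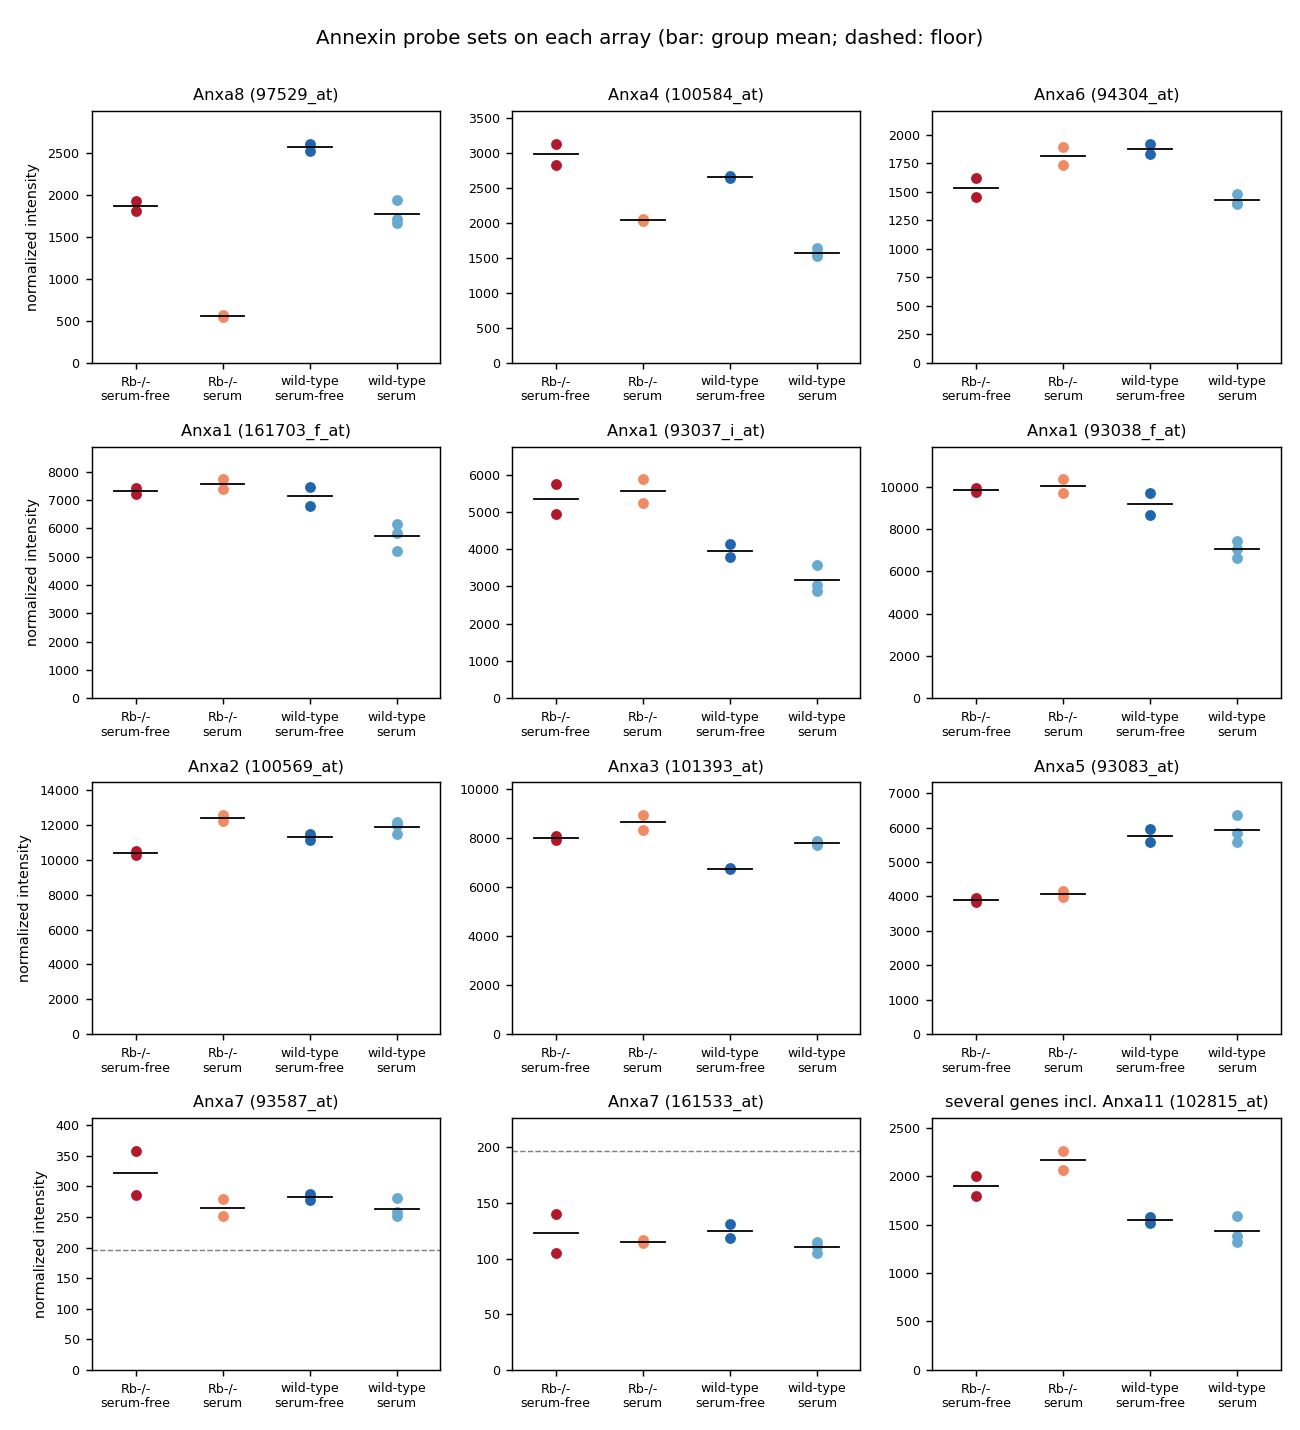
Normalized intensity (linear axis from 0) of each annexin probe set on each of the 9 arrays, by group, with a bar at the group mean and a dashed line at the floor of 197 in the panels of dim probe sets. Anxa8 sits at 570.3 and 547 on the Rb-/- serum arrays and at 1662 or more on every other array, while Anxa5 is lower on all Rb-/- arrays than on any wild-type array.

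Anxa4 was the other annexin that rose on serum withdrawal in both lines. It encodes an annexin of secretory and absorptive epithelia that associates with the apical and vesicle membranes. Intensities were 3126 and 2822 in Rb-/- serum-free cells, 2022 and 2051 in Rb-/- serum cells, 2664 and 2642 in wild-type serum-free cells and 1635, 1521 and 1562 in wild-type serum cells. No groups overlapped, and both serum-free groups were above both serum groups. Withdrawal raised Anxa4 by 0.54 in Rb-/- cells (SE 0.08, adjusted p = 0.00169) and by 0.76 in wild-type cells (SE 0.07, adjusted p = 0.000118). The difference of these responses was -0.21 (SE 0.10, adjusted p = 0.514) and did not pass. Between the lines, Anxa4 differed by 0.37 in serum (SE 0.07) and by 0.16 without serum (SE 0.08). The serum-free value was 0.38 for unscaled deposited intensities and 0.35 after median scaling.

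Anxa6, an annexin built of a pair of cores that binds endosomal membranes, had withdrawal differences of opposite sign in the lines. Intensities were 1621 and 1451 in Rb-/- serum-free cells, 1892 and 1732 in Rb-/- serum cells, 1834 and 1921 in wild-type serum-free cells and 1388, 1402 and 1479 in wild-type serum cells. The serum-free arrays lay below the serum arrays in the Rb-/- line and above them in the wild-type line. Withdrawal raised Anxa6 in wild-type cells by 0.40 (SE 0.08, adjusted p = 0.00900), while in Rb-/- cells the difference was -0.24 (SE 0.09, adjusted p = 0.119) and did not pass. The difference of the responses was -0.64 (SE 0.12, adjusted p = 0.0487). It sat at the threshold: only 2 of 17 alternative settings kept it, a floor at percentile 40 and the fit without the first wild-type serum array, and the adjusted p ran from 0.0207 to 0.271. The rise in wild-type cells was lost without either wild-type serum-free array (adjusted p = 0.0523 without the first and 0.0974 without the second) and for unscaled deposited intensities (0.0656), over a range of 0.00714 to 0.0974. Between the lines, Anxa6 differed by 0.35 in serum (SE 0.08), by -0.29 without serum (SE 0.09) and by 0.03 averaged over media (SE 0.06), or 0.22 averaged for unscaled deposited intensities. The serum-free value shrank to -0.06 for unscaled deposited intensities and to -0.09 after median scaling.

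Anxa1 was higher in the Rb-/- line in serum on all 3 of its probe sets. Annexin A1 restrains cytosolic phospholipase A2, is induced by glucocorticoids and acts outside the cell on formyl peptide receptors. Its probe sets are numbered here as the plots order them. The first and the third carry the suffix f, for probes shared within a sequence family, so they are not wholly specific by design. The second carries the suffix i, for an incomplete set of unique probes, so it is short of such probes. On the second probe set the intensities were 5750.1 and 4954 in Rb-/- serum-free cells, 5225 and 5868 in Rb-/- serum cells, 3786 and 4126 in wild-type serum-free cells and 3584, 3045 and 2885 in wild-type serum cells. All Rb-/- arrays were above all wild-type arrays. On the third probe set they were 9939 and 9743 in Rb-/- serum-free cells, 9685 and 10341 in Rb-/- serum cells, 8641 and 9685 in wild-type serum-free cells and 6650.1, 7419 and 7052 in wild-type serum cells. Here the wild-type serum arrays stood lowest, and the lines met at 9685. On the first probe set they were 7419 and 7213, 7382 and 7721, 6799 and 7445, and 5205, 6147 and 5840.4, again for Rb-/- serum-free, Rb-/- serum, wild-type serum-free and wild-type serum cells. There the wild-type serum-free arrays overlapped the Rb-/- arrays. The meeting of the lines on these 2 probe sets depended on scaling. As deposited, the lowest Rb-/- array read 7176 on the first probe set, against 7057 on the highest wild-type array. On the third probe set these values were 9520 and 9325.

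In serum the Rb-/- line was above the wild-type line by 0.40 (SE 0.07), 0.81 (SE 0.11) and 0.51 (SE 0.06) on the first, the second and the third probe set. For unscaled deposited intensities these serum values were 0.55, 1.00 and 0.61. Without serum the same differences were 0.04 (SE 0.08), 0.43 (SE 0.12) and 0.11 (SE 0.07). These were all above 0 but unlike in size, and the value on the first probe set was smaller than its SE. In wild-type cells, withdrawal raised Anxa1 by 0.38 on the third probe set (SE 0.06, adjusted p = 0.00388) and by 0.32 on the first probe set (SE 0.07, adjusted p = 0.0190). The value on the second probe set was 0.32 (SE 0.11, adjusted p = 0.0714). Without the second wild-type serum-free array both calls were lost, with adjusted p = 0.0544 on the third probe set (range over the alternatives 0.00358 to 0.0544) and 0.180 on the first probe set (range 0.0134 to 0.180). The call on the first probe set was also lost for unscaled deposited intensities (0.0934), with median scaling (0.0538) and without the filter on dim probe sets (0.0691), while the second probe set passed without the first wild-type serum array (0.42, adjusted p = 0.00786). In Rb-/- cells the value was -0.05 on the first probe set and the second probe set and -0.02 on the third probe set, and none passed (adjusted p = 0.854 to 0.924). The difference of the responses between the lines was -0.36 to -0.40 and did not pass on any probe set (adjusted p = 0.124 to 0.424), so a different response of the lines is not shown for Anxa1.

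Anxa5 was lower in the Rb-/- line in both media and showed no called response to withdrawal. Annexin A5 binds phosphatidylserine and is the usual reagent for its exposure on dying cells. Intensities were 3838 and 3966 in Rb-/- serum-free cells, 4146 and 3974 in Rb-/- serum cells, 5574 and 5967 in wild-type serum-free cells and 5588, 5840.4 and 6361 in wild-type serum cells. The lines did not overlap, while the media overlapped in wild-type cells and were separated by a narrow gap in Rb-/- cells. The lines differed by -0.54 in serum (SE 0.07) and by -0.56 without serum (SE 0.07), which is 1.46-fold and 1.48-fold lower. For unscaled deposited intensities these differences were smaller, at -0.36 and -0.40. Withdrawal gave -0.06 in Rb-/- cells (SE 0.07, adjusted p = 0.754) and -0.04 in wild-type cells (SE 0.07, adjusted p = 0.739).

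Anxa2 was lower on withdrawal in the Rb-/- line. Annexin A2 pairs with S100a10 and assembles plasminogen and its activator on the cell surface. Its intensities were 10267 and 10531 in Rb-/- serum-free cells, 12255 and 12566 in Rb-/- serum cells, 11479 and 11165 in wild-type serum-free cells and 12184, 11479 and 12004 in wild-type serum cells. The Rb-/- serum-free arrays were the lowest. Withdrawal lowered Anxa2 in Rb-/- cells by 0.26, a log2 difference of -0.26 (SE 0.05, adjusted p = 0.00555), and the call was lost without the second Rb-/- serum array (adjusted p = 0.0658, the highest among alternatives that began at 0.000906). In wild-type cells the value was -0.07 (SE 0.04, adjusted p = 0.313), and the difference of the responses, -0.18 (SE 0.06, adjusted p = 0.278), did not pass. Between the lines, Anxa2 differed by 0.06 in serum (SE 0.04) and by -0.12 without serum (SE 0.05), with no overlap of the arrays in either medium. The serum value was 0.15 for unscaled deposited intensities, and the serum-free value -0.15 after median scaling. These opposite signs averaged to -0.03 (SE 0.03), or 0.02 for unscaled deposited intensities.

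Anxa3, an annexin known from the granules of human neutrophils, read 8096 and 7909 in Rb-/- serum-free cells, 8341 and 8925 in Rb-/- serum cells, 6756 and 6715 in wild-type serum-free cells and 7821, 7869.6 and 7721 in wild-type serum cells. All Rb-/- arrays were above all wild-type arrays, by a narrow gap of 7909 against 7869.6, and the wild-type serum-free arrays were the lowest. As deposited the lines overlapped, with 7813 on a Rb-/- serum-free array and 7884 on a wild-type serum array. The lines differed by 0.14 in serum (SE 0.05) and by 0.25 without serum (SE 0.05), or by 0.25 and 0.33 for unscaled deposited intensities. Withdrawal lowered Anxa3 in wild-type cells, with a log2 difference of -0.21 (SE 0.05, adjusted p = 0.0123). That call was lost without either wild-type serum-free array (adjusted p = 0.0744 and 0.0902) and without an intensity trend in the variance (0.0514), within a range of 0.00341 to 0.0902. In Rb-/- cells the value was -0.11 (SE 0.05, adjusted p = 0.221), and it passed for unscaled deposited intensities (-0.23, adjusted p = 0.0227, in a range of 0.0227 to 0.804).

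Anxa7, also called synexin, joins secretory membranes and binds the EF-hand proteins sorcin and Pdcd6. Its tested probe set was dim, with 358 and 286 in Rb-/- serum-free cells, 252 and 279 in Rb-/- serum cells, 288 and 277 in wild-type serum-free cells and 282, 258 and 251 in wild-type serum cells. The groups were close to each other and to the floor. No comparison passed, with 0.27 for withdrawal in Rb-/- cells (SE 0.11, adjusted p = 0.163) and 0.10 in wild-type cells (SE 0.10, adjusted p = 0.545). The withdrawal call in Rb-/- cells appeared without the second Rb-/- serum-free array (0.43, adjusted p = 0.0434), in a range of 0.0434 to 0.735.

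The probe set shared by Anxa11 and the predicted genes read 2005 and 1796 in Rb-/- serum-free cells, 2262 and 2067 in Rb-/- serum cells, 1518 and 1578 in wild-type serum-free cells and 1589, 1323 and 1384 in wild-type serum cells. Every Rb-/- array was above every wild-type array, by 0.60 in serum (SE 0.10) and 0.29 without (SE 0.11). The serum-free value was 0.52 for unscaled deposited intensities and 0.48 after median scaling. Withdrawal gave -0.19 in Rb-/- cells (SE 0.11, adjusted p = 0.341) and 0.12 in wild-type cells (SE 0.10, adjusted p = 0.471), and neither passed.

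**Figure D2:**
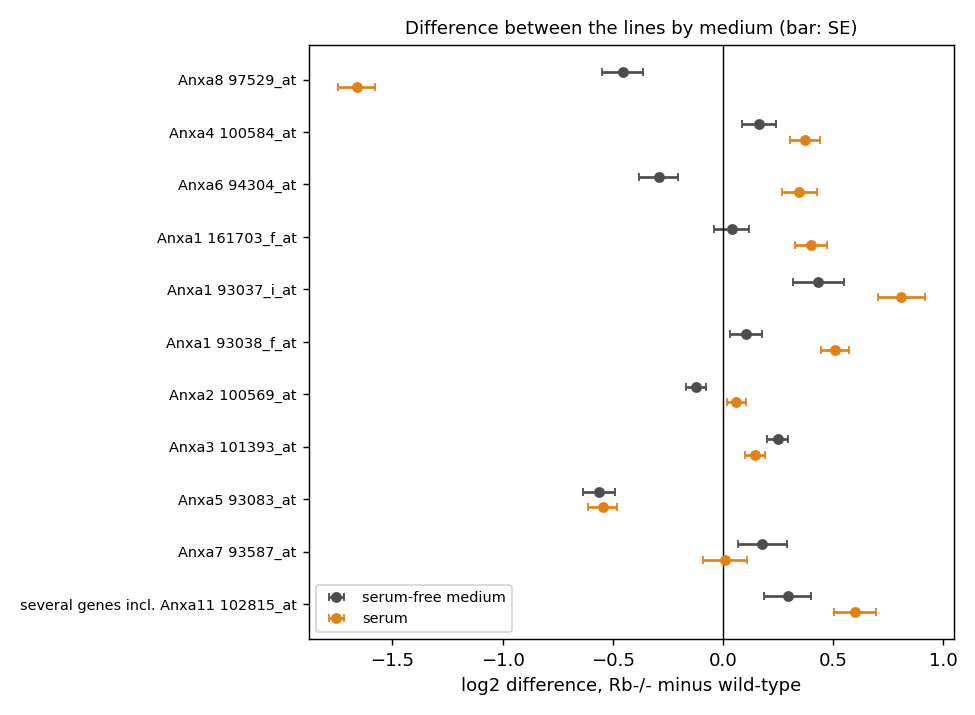
Log2 difference between the Rb-/- and the wild-type line for each tested annexin probe set, without serum (dark) and in serum (orange), with bars of 1 SE. Anxa8 lies at -0.46 without serum and -1.66 in serum, Anxa5 near -0.55 in both, and Anxa6 on opposite sides of 0.

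Counted over the 10 tested single-gene probe sets, 7 passed an adjusted p of 0.05 in the difference between the lines averaged over media, 5 higher and 2 lower in Rb-/- cells, where 45.2% of all tested probe sets passed, 21.8% higher and 23.4% lower. In serum 8 passed, 6 higher and 2 lower, beside 23.6% of all, 13.2% higher and 10.4% lower. Anxa3 was the least stable of these 8 and passed in 6 of 17 alternative settings. Without serum 5 passed, 2 higher and 3 lower, beside 30.7% of all, 16.8% higher and 13.9% lower. In normalized intensities, Rb-/- and wild-type arrays were fully separated for 3 of the 10 over both media (23.1% of all tested). They were so for 9 in serum (49.5%) and for 8 without serum (74.3%). As deposited, Anxa3 overlapped over both media, while the first and the third probe set of Anxa1 were separated. The 3 probe sets of Anxa1 share a gene and count separately here. These counts come from the comparison that may have led to the choice of the family and carry no weight as a test. The serum count was 4 without the second Rb-/- serum array, where 882 of 9659 tested probe sets passed. The main fit had 2287 of 9686 there, and the fit without the first wild-type serum array 4373 of 9654. The serum-free count was 3 without the first wild-type or the first Rb-/- serum-free array, beside 1155 of 9662 and 1289 of 9649. It was 2 without the second wild-type serum-free array, beside 1392 of 9650, against 2971 of 9686 in the main fit. Scaling moved the serum-free split to 3 higher and 1 lower for unscaled deposited intensities, and to 3 higher and 2 lower after median scaling. Of all probe sets called without serum, 77.6% and 68.1% were then higher, against 54.8% in the main fit. Over all called probe sets of the averaged difference, 48.1% were higher in Rb-/- cells, against 69.3% and 60.7% under those scalings, and of those called for withdrawal in wild-type cells 41.6% were higher without serum, against 25.7% and 36.2%. The median difference of the 10 probe sets averaged over media, with Anxa1 counted 3 times, was 0.15, beside -0.05 for all tested.

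For serum withdrawal, 3 of the 10 passed in Rb-/- cells, Anxa8 and Anxa4 higher and Anxa2 lower, where 13.9% of all tested probe sets passed, 7.5% higher and 6.42% lower. In wild-type cells 6 passed, where 15.9% of all did, 6.61% higher and 9.26% lower: Anxa8, Anxa4, Anxa6 and 2 probe sets of Anxa1 were higher and Anxa3 was lower. Arrays with and without serum did not overlap for 7 of the 10 in Rb-/- cells (56% of all tested) and for 7 in wild-type cells (44.2%). The wild-type count was 4 without the first wild-type serum-free array and 2 without the second, when Anxa8 and Anxa4 remained. Calls over all tested probe sets fell too, from 1537 of 9686 to 731 of 9662 and 675 of 9650. The annexin count was also 4 for unscaled deposited intensities, beside 1376 of 9703. The median response of the 10 was -0.05 in Rb-/- cells and 0.32 in wild-type cells, beside 0.00 and 0.05 for all tested. That wild-type median lay between the values of 2 Anxa1 probe sets (0.316 and 0.324), so it leans on a gene counted 3 times. In the difference of the responses 2 of the 10 passed, Anxa8 and Anxa6, where 0.929% of all did, 0.454% upward and 0.475% downward. The lines share no arrays in the withdrawal comparisons, whereas the comparisons between lines and between media use the same 9 arrays.

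**Figure D3:**
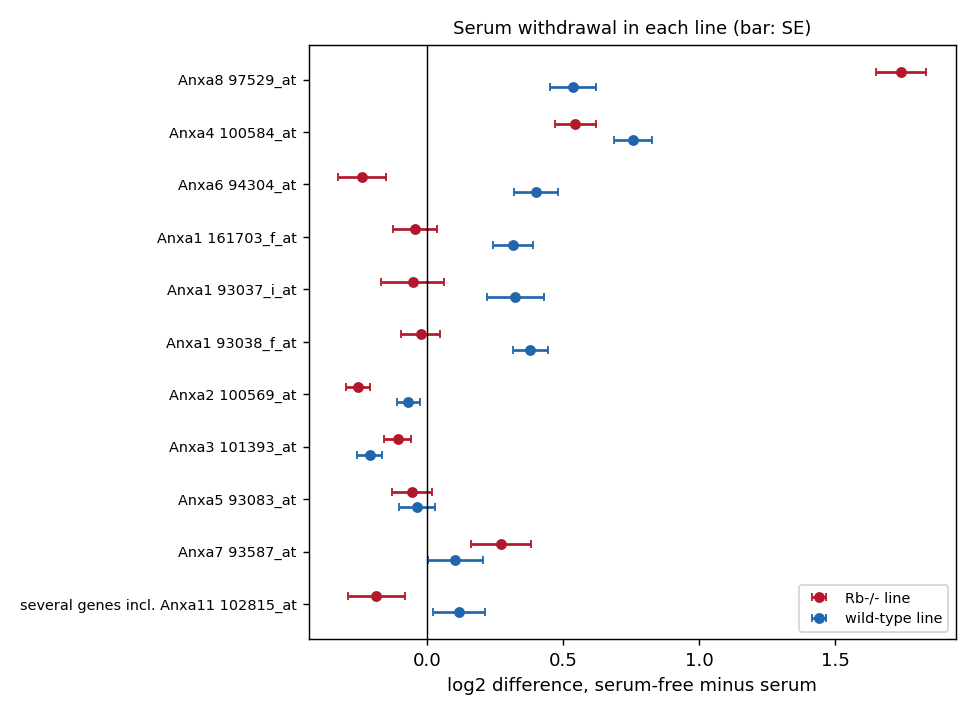
Log2 difference between serum-free and serum cells for each tested annexin probe set in the Rb-/- line (red) and the wild-type line (blue), with bars of 1 SE. Anxa8 lies at 1.74 and 0.54 and Anxa4 at 0.54 and 0.76, while Anxa6 and the Anxa1 probe sets lie above 0 in the wild-type line and at or below 0 in the Rb-/- line.

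The windows around the start of Anxa8, Anxa4 and Anxa1 are shown because Anxa8 and Anxa4 rose on withdrawal in both lines and Anxa1 stood highest in Rb-/- against wild-type serum cells. RefSeq windows of build GRCm38.p6, 250 bases before to 50 after each start, were found for 7 of the 9 genes. They are written 5′ to 3′ on the gene's strand, and capitals mark a match on either strand to TTTNNCGC (the E2F core), TGANTCA (AP-1), TATAAA (the motif called TATA box), GGGCGG (the motif called GC box) or CACGTG (the motif called E-box).
Anxa8, chr14:34085729-34086028, plus strand: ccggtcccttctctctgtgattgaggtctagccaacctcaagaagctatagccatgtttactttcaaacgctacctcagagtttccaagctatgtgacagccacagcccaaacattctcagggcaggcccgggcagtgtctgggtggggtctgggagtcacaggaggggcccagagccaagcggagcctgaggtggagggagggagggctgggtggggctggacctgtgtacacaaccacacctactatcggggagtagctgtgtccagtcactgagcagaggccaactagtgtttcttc
Anxa4, chr6:86793535-86793834, minus strand, one of its 2 windows: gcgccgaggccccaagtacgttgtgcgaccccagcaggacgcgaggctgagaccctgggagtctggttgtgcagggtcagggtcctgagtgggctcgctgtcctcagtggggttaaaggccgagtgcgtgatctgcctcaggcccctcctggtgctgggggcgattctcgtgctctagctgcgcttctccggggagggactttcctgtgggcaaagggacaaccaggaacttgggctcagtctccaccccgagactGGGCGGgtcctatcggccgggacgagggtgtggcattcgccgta
Anxa1, chr19:20390622-20390921, minus strand: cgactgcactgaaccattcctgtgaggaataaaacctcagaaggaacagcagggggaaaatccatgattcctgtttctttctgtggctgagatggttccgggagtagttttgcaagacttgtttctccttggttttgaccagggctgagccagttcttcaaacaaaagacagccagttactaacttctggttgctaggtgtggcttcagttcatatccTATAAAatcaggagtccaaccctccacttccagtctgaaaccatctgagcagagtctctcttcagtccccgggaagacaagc

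The Anxa8 window held none of the 5 motifs, which says only that these letters are not in it. The Anxa4 window held a GC box 7 bases into the transcript, a motif in 35.7% of all 32851 windows of this length. The Anxa1 window held a TATA box that begins 32 bases before the start, as 13.6% of all windows hold. The Anxa2 window held a TATA box too, with an AP-1 match, which 7.81% of windows have. The E2F core, present in 5.17% of windows, was found in 1 of the 9 annexin windows, that of Anxa11. None of these matches marks a site in use.

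By the distance between group means, 3 probe sets of other genes had the pattern nearest to Anxa8. Likeness was the root mean square difference of the 4 group means, each probe set centred on its own mean, over the 9 arrays. Psap, the precursor of the lysosomal saposins, lay at 0.18, Timp2, an inhibitor of metalloproteinases, at 0.24, and Mal, a proteolipid of apical membrane transport, at 0.31. Group means of Psap were 9.17 in Rb-/- serum-free, 7.78 in Rb-/- serum, 9.60 in wild-type serum-free and 9.44 in wild-type serum cells on the log2 scale. The Rb-/- serum mean of Psap lay close to the floor, 7.62 on this scale, so the floor may limit how low it reads. Each of the 3 had its lowest group mean in Rb-/- serum cells, as Anxa8 did. They were picked for nearness to that pattern, so this is no separate result.

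**Figure D4:**
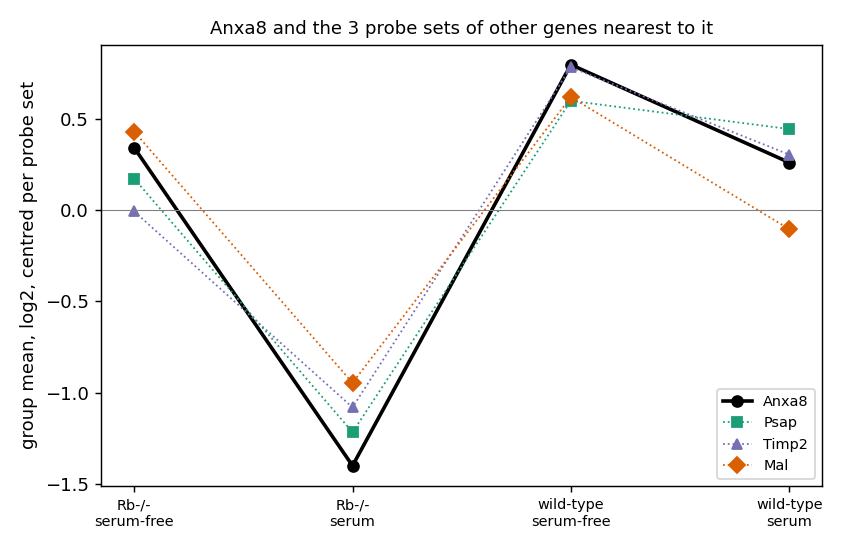
Group means on the log2 scale, each centred on the mean of its own 4 groups, for Anxa8 (solid) and the nearest probe sets of other genes, Psap, Timp2 and Mal (dotted). The lines join groups only to guide the eye, and the Rb-/- serum group is the lowest of each.

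Genes that work with annexins were read from 5 lists. Of the EF-hand partners, 7 of 10 were tested: in Rb-/- against wild-type cells averaged over media, 1 was higher and 3 were lower. S100a10, the partner of annexin A2, had mean intensities of 5656 in Rb-/- serum-free, 7196 in Rb-/- serum, 7323 in wild-type serum-free and 8169 in wild-type serum cells. It was lower in Rb-/- cells by a log2 difference of -0.28 (SE 0.05), and lower on withdrawal in Rb-/- cells at -0.35 (SE 0.08, adjusted p = 0.0145), the medium and line in which Anxa2 was lowest. S100a4 was also lower there, at -0.49 (adjusted p = 0.0262). In wild-type cells S100a10 stood at -0.16 (adjusted p = 0.171) and S100a4 at -0.37 (adjusted p = 0.0559), and the difference of the responses passed for neither (adjusted p = 0.553 and 0.781). On withdrawal 2 of the 7 passed in Rb-/- cells, beside 13.9% of all tested probe sets, and 0 in wild-type cells, beside 15.9%. S100a6, a partner of annexin A11, stood at -0.23 (SE 0.03), the penta-EF-hand gene Pef1 at -0.47 and its relative Pdcd6 at 0.26. S100a11 had no probe set of its own.

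Of the annexin A1 list, 5 of 8 genes were tested, with 1 higher and 1 lower in Rb-/- cells. Pla2g4a, the cytosolic phospholipase A2 that annexin A1 restrains, was higher in Rb-/- cells at 0.93 (SE 0.12), with means of 1581 in Rb-/- serum-free, 1450 in Rb-/- serum, 782 in wild-type serum-free and 818 in wild-type serum cells. The receptor Egfr, whose kinase acts on annexin A1, was lower at -0.47 (SE 0.07). The formyl peptide receptor Fpr2 lay below the floor and Fpr1 had no probe set. None of the 5 passed for withdrawal in either line, beside 13.9% of all tested probe sets in Rb-/- cells and 15.9% in wild-type cells.

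Of the plasminogen list, 6 of 10 were tested and 1 passed between the lines, the activator Plat, lower at -0.42 (SE 0.07). Plgrkt, a plasminogen receptor, was higher on withdrawal in Rb-/- cells at 0.58 (SE 0.14, adjusted p = 0.0233). In wild-type cells it stood at 0.28 (adjusted p = 0.187), and the difference of the responses, 0.29, did not pass (adjusted p = 0.608). On withdrawal 1 of the 6 passed in Rb-/- cells and 0 in wild-type cells, beside 13.9% and 15.9% of all tested probe sets. Of the membrane repair list, 9 of 12 were tested, with 2 higher and 4 lower in Rb-/- cells. The calpain Capn1 stood at -0.88 (SE 0.07) and the ESCRT ATPase Vps4b at 0.59 (SE 0.13). On withdrawal 2 of the 9 passed in Rb-/- cells and 3 in wild-type cells, all higher without serum, beside 13.9% and 15.9% of all tested probe sets. The calpain small subunit Capns1 was higher in both lines, at 0.37 in Rb-/- cells (adjusted p = 0.0107) and 0.49 in wild-type cells (adjusted p = 0.00134), as was the ESCRT subunit Chmp4b at 0.32 (adjusted p = 0.0138) and 0.25 (adjusted p = 0.0255), and Capn1 in wild-type cells at 0.45 (adjusted p = 0.0133). Of the phosphatidylserine list, 6 of 10 were tested, with 0 higher and 2 lower in Rb-/- cells: the bridging ligand Gas6 at -0.28 and its receptor Mertk at -0.35. The scramblase-like gene Plscr1 was lower on withdrawal in Rb-/- cells at -0.49 (SE 0.11, adjusted p = 0.0177). In wild-type cells it stood at -0.09 (adjusted p = 0.580), and the difference of the responses, -0.40, did not pass (adjusted p = 0.368). On withdrawal 1 of the 6 passed in Rb-/- cells and 0 in wild-type cells, beside the same shares of all.

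Over the 5 lists the medians between the lines ran from -0.20 to 0.10, beside -0.05 for all tested probe sets. Each share passed is to be read beside the 45.2% of all tested probe sets that passed in that comparison.

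**Figure D5:**
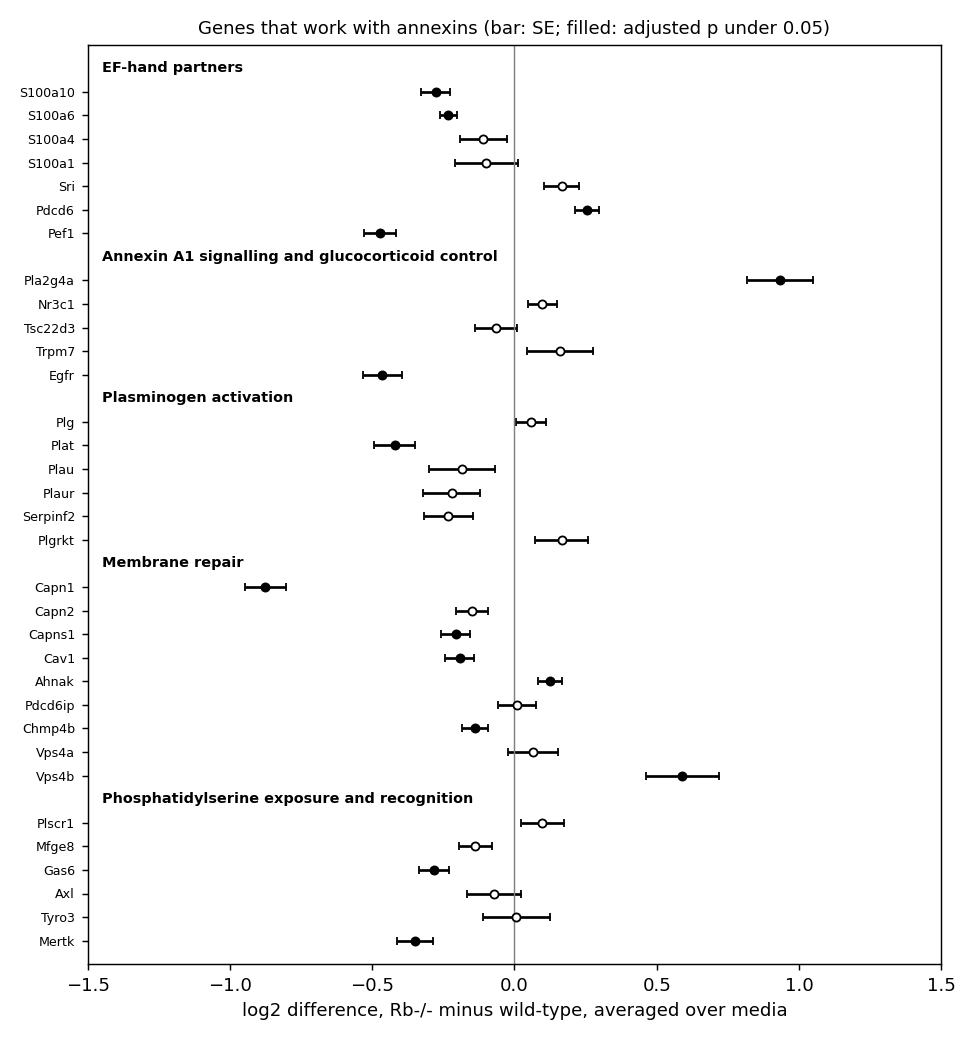
Log2 difference between the Rb-/- and the wild-type line averaged over media for the tested genes of 5 lists of annexin partners and neighbours, each by its brightest probe set, with bars of 1 SE and filled points where the adjusted p is under 0.05. Pla2g4a at 0.93 and Capn1 at -0.88 lie furthest from 0.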

How the data were processed

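Per the labels, total RNA of 9 samples was measured on single-channel arrays. The deposited intensity of each probe set is linear, not logged. The sources used here do not give its software or scaling. Upper quartiles differed between arrays by 0.22 on the log2 scale, over the set limit of 0.1, so arrays were quantile normalized with limma 3.58.1 in R 4.3.3, raised to the floor (percentile 25) and taken to log2. A probe set entered the fit if at least 2 arrays exceeded the floor, which dropped 2735, besides 1 empty. Symbols came from the platform annotation, updated by gene identifier through RefSeq's GRCm38.p6 table. It names 10833 probe sets with 1 gene, 396 with several and 1193 with none.

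The 4 groups were fitted together in limma with moderated, intensity-dependent variances and 5 residual degrees of freedom. Tests were two-sided, with Benjamini-Hochberg adjustment across 9686 probe sets and a threshold of 0.05. The fit was tested on simulated data. All members are named. Listed genes are represented by their brightest probe set, up to 3 by size of the difference between the lines plus S100a10, S100a6, Plat, Pla2g4a, Fpr1, Fpr2 and S100a11. Other listed genes (S100a4, Plgrkt, Chmp4b and Plscr1) were named after their values were seen. The members and lists were chosen with earlier results of these data known.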

Additional observations from a re-analysis of the deposited data

Results flagged for a closer look

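The response to serum withdrawal differed between the lines by the test of that difference for 2 annexin probe sets. This test reuses the differences between the lines that were in view at the choice, so it is no independent support. For Anxa8 the Rb-/- response minus the wild-type response was 1.21 on the log2 scale (limma adjusted p = 0.00433), and both responses were rises. For Anxa6 it was -0.64 (adjusted p = 0.0487), with serum-free below serum on both Rb-/- arrays and above it on both wild-type arrays.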

How the results depend on the processing

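The alternatives were 8 other settings of scaling, floor, filter, variance model and pairing, and the fits without each of the 9 arrays. The number of called annexin probe sets in the difference of the withdrawal responses was 2, and 1 for unscaled deposited intensities, after median scaling, with the floor at percentile 10, without the filter, without the trend, with robust hyperparameters and with the replicate block. Anxa8 kept that call in each of these, and Anxa6 lost it. Over all tested probe sets, 51 to 78 passed in these settings and 90 in the main fit. With single arrays left out, the counts ran from 6 to 7 for the lines averaged over media, 4 to 8 in serum, 2 to 6 without serum, 2 to 4 for withdrawal in Rb-/- cells, 2 to 7 in wild-type cells and 1 to 2 for the difference of the responses. Of 9649 to 9664 tested probe sets, these fits called 3069 to 6078 averaged over media, 882 to 4373 in serum and 1155 to 4983 without. Withdrawal gave 496 to 2276 in Rb-/- cells and 675 to 1961 in wild-type cells, and the difference of the responses 12 to 254. Replicate numbers in the labels are shared by the groups but there are only 2 shared numbers, and deviations of same-numbered arrays correlated between -0.23 and 0.33, so they were not treated as pairs. The replicate block changed 2 calls, Anxa3 in serum and the Anxa6 difference (adjusted p = 0.0860 for Anxa6).

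No called value changed sign. Values near 0 did: Anxa2 averaged over media was 0.0202 as deposited, Anxa7 in serum was -0.000513 as deposited, -0.0261 with median scaling and -0.0235 with the block, and Anxa5 on withdrawal in wild-type cells was 0.0138 with the block. Without single arrays the sign also turned for Anxa7 in serum (-0.0634 to 0.0846), Anxa5 on withdrawal in wild-type cells (-0.0870 to 0.0138) and in the difference of the responses (-0.0710 to 0.0298), Anxa6 averaged over media (-0.0118 to 0.0685), the first probe set of Anxa1 between the lines without serum (-0.0254 to 0.106), and the second and the third probe set of Anxa1 on withdrawal in Rb-/- cells (-0.161 to 0.0543 and -0.0716 to 0.0229). The cause was not tested. With 2 or 3 arrays a group and no detection calls, small differences and dim probe sets such as those of Anxa7 are poorly resolved.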

Other observations

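The array holds 1 further annexin gene outside the set, Anxa10, whose probe set lay between 76.7 and 112 on every array, under the floor of 197.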
